A study of Mus musculus with 4 samples.

Results

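A set of 9 genes that mark B cells and plasma cells was followed, namely *Mzb1*, *Irf4*, *Cd79a*, *Cd79b*, *Ms4a1*, *Pou2af1*, *Pax5*, *Cd22* and *Blk*, among the 23420 gene symbols counted in mouse prefrontal cortex (PFC). They were chosen by their known place in the B lineage and with their raw counts in the comparison of *Ash1L* shRNA with control samples already known, so their values in that comparison are given as a description without a test. The control group comprised 2 samples of PFC from C57BL6/J mice injected with GFP-AAV9 as the labels name it, which the study's methods describe as a scrambled shRNA AAV. The *Ash1L* shRNA group comprised 2 samples from mice of the same strain that received an AAV carrying a short hairpin RNA against *Ash1L*, driven by the U6 promoter and tagged with GFP. Both viruses were injected bilaterally into the medial PFC at 5 weeks of age, punches with GFP fluorescence were taken, and by the study's methods each sample pooled the punches of 3 mice. The deposited design text instead puts the mice at 6 to 8 weeks of age and lists 3 mice with the hairpin and 2 controls. A U6 promoter is active in most cell types. The study imaged PFC neurons that carried the hairpin virus, and whether immune cells of the punch carried it is not reported. The groups are called control and knockdown here, and the plots label knockdown samples as shRNA.

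B cells are lymphocytes that bind antigen through a surface immunoglobulin, and this receptor signals through the paired chains CD79A and CD79B. On activation some of them become plasma cells, which shut down much of the B cell program, enlarge the endoplasmic reticulum and secrete antibody. The healthy brain parenchyma holds few cells of either kind, and most of those found in a brain sample lie in the meninges, the choroid plexus or the blood. In bulk tissue, fewer cells of a type and less RNA per cell cannot be told apart.

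The counts summed to between 14251190 and 35764874 per sample. Control sample 1 was the shallowest. A floor of 3 counts in a sample, close to the 1-sided 95% upper limit of a count of 0, corresponded to 0.0855 to 0.212 CPM. CPM is the count as a share of the library's total, scaled up to a common depth. All CPM values here were scaled with TMM factors (a normalization by the bulk of genes), and intervals on counts cover counting error only. *Ash1l*, the targeted gene, had 3459 and 10176 counts in controls 1 and 2 against 5906 and 2850 counts in knockdown samples 1 and 2. Its level was lower in both knockdown samples, with 245 and 290 CPM against 216 and 137 CPM. The fitted log2 fold change was -0.60 (SE 0.22), with an adjusted p of 0.275 in edgeR's quasi-likelihood test. The study also reports less *Ash1L* mRNA by quantitative PCR and less protein by Western blot in PFC of knockdown mice. Across the 16232 genes that passed edgeR's filter on low counts, 1344 (8.28%) were DOWN and 1397 (8.61%) were UP. DOWN and UP follow the definition of the study, an unadjusted p under 0.05 with at least a 1.2-fold change. After Benjamini-Hochberg adjustment in edgeR's quasi-likelihood test, 1 gene (0.00616%) had an adjusted p under 0.05, while 2746 genes had an unadjusted p under 0.05. In 4351 genes (26.8%) the highest knockdown value lay below the lowest control value.

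B lineage RNA was present at low levels in the control samples and lowest in knockdown sample 2. All 9 genes had counts in both controls. For 7 of the 9 genes, both knockdown samples lay below both control samples, and the 2 exceptions were *Pax5* and *Cd22*. That background of 26.8% stands beside this count without reading anything from it, since the genes were selected on these values. The ratio of group means ran from 26.4-fold lower in knockdown samples for *Ms4a1* to 1.27-fold lower for *Cd22*. All 9 genes had a lower mean in the knockdown group, and all 9 had a higher level in knockdown sample 1 than in sample 2. Between the controls, 7 of the 9 were higher in sample 2, and the exceptions were *Mzb1* and *Irf4*.

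**Figure D1:**
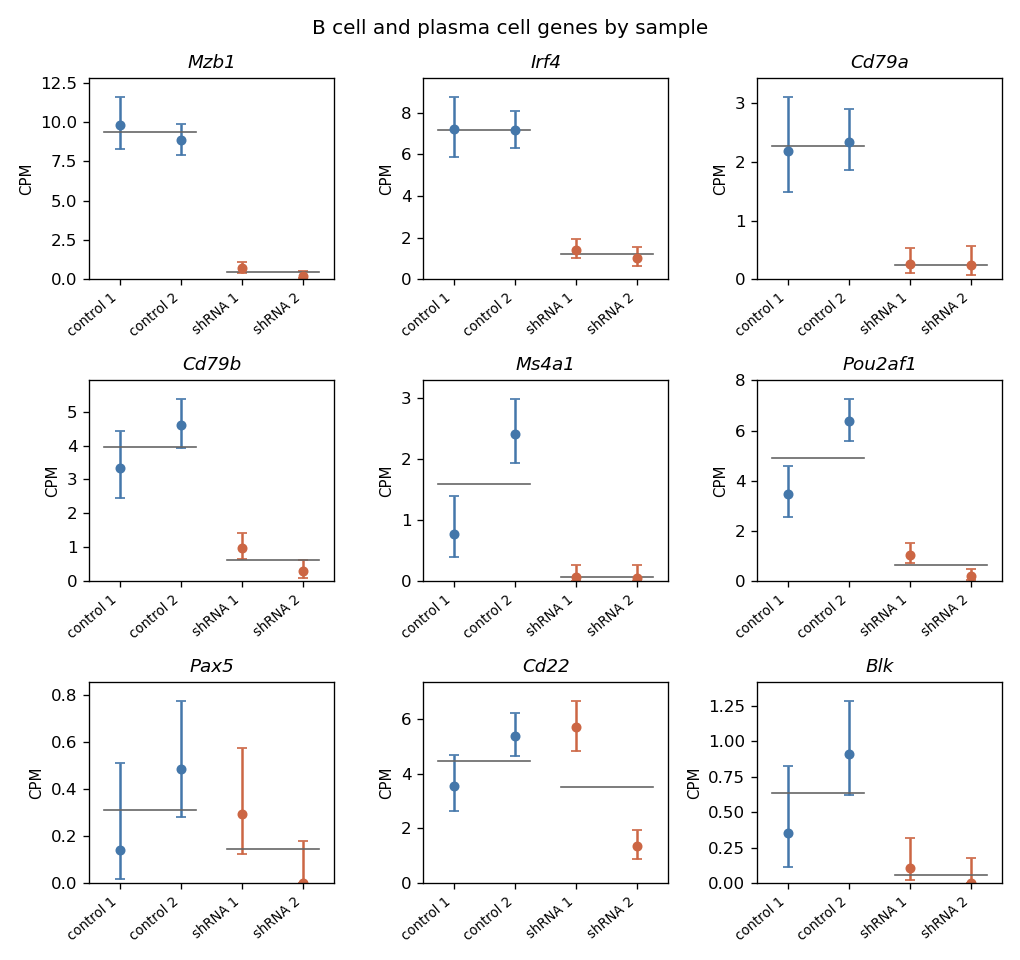
Level of each of the 9 genes in CPM (TMM-scaled, linear axis from 0, one scale per gene) in the 4 samples. Points are samples, bars are exact 95% Poisson intervals of the count, and grey lines are group means. *Mzb1*, *Irf4* and *Cd79a* had control samples close to each other and well above both knockdown samples, whereas knockdown sample 1 reached the control level for *Cd22*.

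The genes most tied to antibody-secreting cells were examined first. *Mzb1* (ENSMUSG00000024353, GRCm38 chromosome 18 from 35647267 to 35649367, minus strand) encodes an endoplasmic reticulum protein of B cells and plasma cells that aids the assembly and secretion of antibody. It had 139 and 311 counts in controls 1 and 2 (9.84 and 8.86 CPM) and 19 and 4 counts in knockdown samples 1 and 2 (0.693 and 0.193 CPM). The control samples were alike and both lay far above the knockdown samples, and the lowest control was 12.8 times the highest knockdown value. The group means were 9.35 ± 0.694 and 0.443 ± 0.354 CPM (SD, n = 2), a 21.1-fold difference. With counts pooled within each group the ratio was 19.1, with an exact 95% interval of 12.6 to 30.5. *Mzb1* shares exonic bases with *Spata24* on the same strand, and reads in the shared part could be assigned to either gene or to neither. *Spata24* itself had 59, 139, 85 and 67 counts, given in the order of controls 1 and 2 and knockdown samples 1 and 2, with a fitted log2 fold change of -0.36 (SE 0.27) that was not called.

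*Irf4* (ENSMUSG00000021356, chromosome 13 from 30749226 to 30766976, plus strand) encodes a transcription factor that drives plasma cell differentiation and also acts in T cells and myeloid cells. It had 102 and 251 counts in the control samples (7.22 and 7.15 CPM) and 39 and 21 counts in knockdown samples 1 and 2 (1.423 and 1.013 CPM). Within each group the samples lay close together, and the groups did not overlap. The means were 7.19 ± 0.0503 and 1.22 ± 0.290 CPM (SD, n = 2), and the pooled ratio was 5.75 with an interval of 4.37 to 7.70. Its promoter is shown because *Irf4* is the gene of this group with the most counts left in knockdown sample 2 after *Cd22*. The window below runs from 250 bases before to 50 bases after the RefSeq start (GRCm38.p6, chr13:30748983-30749282, plus strand), and the capitals mark a TATA box (TATAAA) whose first base lies at position -26 relative to the start.

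Irf4 promoter: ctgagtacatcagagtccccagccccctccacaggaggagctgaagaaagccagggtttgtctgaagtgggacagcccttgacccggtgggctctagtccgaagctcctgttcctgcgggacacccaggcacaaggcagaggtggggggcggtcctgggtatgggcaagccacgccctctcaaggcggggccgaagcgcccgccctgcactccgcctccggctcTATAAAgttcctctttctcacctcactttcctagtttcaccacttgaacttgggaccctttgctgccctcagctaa

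*Pou2af1* (ENSMUSG00000032053, chromosome 9 from 51213708 to 51240080, plus strand) encodes a coactivator that works with octamer-binding factors at immunoglobulin genes. It had 49 and 224 counts in the control samples (3.47 and 6.38 CPM) and 29 and 4 counts in the knockdown samples (1.06 and 0.193 CPM). Here the replicates of both groups stood apart. Control sample 2 was 1.84 times control sample 1 (exact 95% interval 1.34 to 2.56), and knockdown sample 1 was 5.49 times sample 2 (1.93 to 21.5). The lowest control was still 3.28 times the highest knockdown value, and the pooled ratio of the groups was 8.09 (5.63 to 11.99).

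The signalling chains of the B cell receptor were lower in both knockdown samples. *Cd79a* (ENSMUSG00000003379, chromosome 7 from 24897381 to 24902197, plus strand) had 31 and 82 counts in the control samples (2.19 and 2.34 CPM) and 7 and 5 counts in the knockdown samples (0.256 and 0.241 CPM). This was the most even pattern of the 9 genes, with replicates that differed by less than counting error in both groups. The means of 2.27 ± 0.0999 and 0.248 ± 0.0102 CPM (SD, n = 2) differed 9.13-fold, and the pooled ratio of 9.21 had an interval of 5.07 to 18.4. The partner chain *Cd79b* (ENSMUSG00000040592, chromosome 11 from 106311341 to 106314762, minus strand) had 47 and 162 counts in the control samples (3.33 and 4.62 CPM) and 27 and 6 counts in the knockdown samples (0.985 and 0.289 CPM). The groups were again separate, but knockdown sample 1 was 3.41 times sample 2 (exact 95% interval 1.38 to 10.1). The pooled ratio between the groups was 6.20 (4.28 to 9.24). The *Cd79a* promoter is shown as that of a gene found in few cells outside the B lineage. Its window (GRCm38.p6, chr7:24897247-24897546, plus strand) has an E box (CAGGTG) from position -154 and an ETS core (AGGAAG) from position -55, both in capitals.

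Cd79a promoter: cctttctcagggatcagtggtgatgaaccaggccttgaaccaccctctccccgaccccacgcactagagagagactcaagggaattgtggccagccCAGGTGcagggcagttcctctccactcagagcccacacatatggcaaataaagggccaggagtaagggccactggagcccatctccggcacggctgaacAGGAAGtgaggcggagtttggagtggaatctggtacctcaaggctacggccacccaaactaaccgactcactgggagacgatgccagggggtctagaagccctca

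*Ms4a1* and *Cd22* encode surface proteins, and their patterns differed. *Ms4a1* (ENSMUSG00000024673, chromosome 19 from 11249675 to 11266241, minus strand) encodes CD20, which mature B cells carry and plasma cells lose. It had 11 and 85 counts in the control samples (0.779 and 2.42 CPM) and 2 and 1 counts in the knockdown samples (0.0730 and 0.0482 CPM). Both knockdown values lay under the level of 3 counts. The control samples differed 3.11-fold (exact 95% interval 1.65 to 6.46), and the pooled ratio between groups was 31.3 with an interval of 10.4 to 154.5. In control samples, the ratio of *Ms4a1* between samples 2 and 1 thus exceeded the ratio of 0.9003 (0.735 to 1.11) found for *Mzb1*, and these intervals do not overlap.

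*Cd22* (ENSMUSG00000030577, chromosome 7 from 30865402 to 30880342, minus strand) encodes a sialic acid-binding lectin that restrains B cell receptor signalling, and microglia can express it too. It had 50 and 189 counts in the control samples (3.54 and 5.39 CPM) and 156 and 28 counts in the knockdown samples (5.69 and 1.35 CPM). The highest and the lowest value were both knockdown samples, which differed 4.22-fold (exact 95% interval 2.81 to 6.55). The group means of 4.46 ± 1.30 and 3.52 ± 3.07 CPM (SD, n = 2) differed by less than the spread within the knockdown group. *Cd22* shares exonic bases with the antisense gene *Gm29439*, and the strand setting of the counting is not given in the sources used here. Its window is shown beside that of *Cd79a* and was chosen with the level of *Cd22* in knockdown sample 1 known. Whether the letters of a window bear on these levels was not tested. The RefSeq start used (GRCm38.p6, chr7:30878979-30879278, minus strand) lies inside the span that GENCODE gives for the gene. Capitals mark an E box in the opposite orientation (CACCTG, from position -245) and an EBF core (CCCNNGGG, from position -48).

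Cd22 promoter: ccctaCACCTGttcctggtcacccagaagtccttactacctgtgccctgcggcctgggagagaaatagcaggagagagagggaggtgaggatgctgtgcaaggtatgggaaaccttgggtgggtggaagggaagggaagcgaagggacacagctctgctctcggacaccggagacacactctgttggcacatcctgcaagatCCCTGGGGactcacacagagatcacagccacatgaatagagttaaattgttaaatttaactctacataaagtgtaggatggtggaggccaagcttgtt

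Promoter sequences came from RefSeq, and windows of 5 of the 9 genes were searched. The search of the 9 genes left out promoters on chromosome 18, where *Mzb1* lies, so *Mzb1* was not covered. Both strands were searched for 5 sets of letters. The octamer ATGCAAAT was found in 1.74% of all 32851 promoters of the same length and in none of the 5 windows. The other sets were AGGAAG (35.4% of all promoters), CCCNNGGG (13.7%), TATAAA (13.6%) and CAGGTG (20.2%). The windows of *Pou2af1* and *Pax5* held none of these letters. The matches shown do not overlap each other. A match in a window describes its letters and no binding was measured.

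*Pax5* and *Blk* were close to the limit of detection. *Blk* (ENSMUSG00000014453, chromosome 14 from 63372836 to 63417037, minus strand), a Src-family kinase of the B cell receptor pathway, had 5 and 32 counts in the control samples (0.354 and 0.912 CPM) and 3 and 0 counts in the knockdown samples (0.109 and 0 CPM). Its groups did not overlap, and the pooled ratio was 12.1 with an interval of 3.82 to 61.2. *Pax5* (ENSMUSG00000014030, chromosome 4 from 44524757 to 44710487, minus strand), the transcription factor that holds B cell identity and is switched off in plasma cells, had 2 and 17 counts in the control samples and 8 and 0 counts in the knockdown samples. These correspond to 0.142, 0.484, 0.292 and 0 CPM, and knockdown sample 1 lay between the controls. The pooled ratio of 2.32 had an interval of 0.971 to 6.13, which covers counting error only, and the samples of each group lay far apart. *Pax5* also shares exonic bases with antisense transcripts.

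Of the 9 genes, 7 passed the filter on low counts, and *Pax5* and *Blk* did not. *Cd79a* and *Ms4a1* passed through the control samples alone, as their knockdown values lay under the 0.42 CPM of the filter, so a count over the genes that passed favours genes high in one group. In the fit over all genes, the log2 fold changes of *Ms4a1* and *Mzb1* were -4.65 (SE 0.86) and -4.31 (SE 0.49), and only 4 of the 16232 genes tested lay below *Mzb1*. *Cd79a*, *Pou2af1*, *Cd79b* and *Irf4* lay between -3.16 and -2.54 and ranked from the 21st to the 41st lowest. *Cd22* had -0.34 (SE 0.64) and ranked 2666 from the lowest. The genes were chosen with these counts known, so the ranks only describe them. *Ms4a1* and *Cd79a* were ranked through the control samples alone. *Ms4a1*, with 99 counts over the 4 samples, reached the CPM of the filter in both control samples. *Blk* and *Pax5*, with 40 and 27 counts, reached it in control sample 2 alone.

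**Figure D2:**
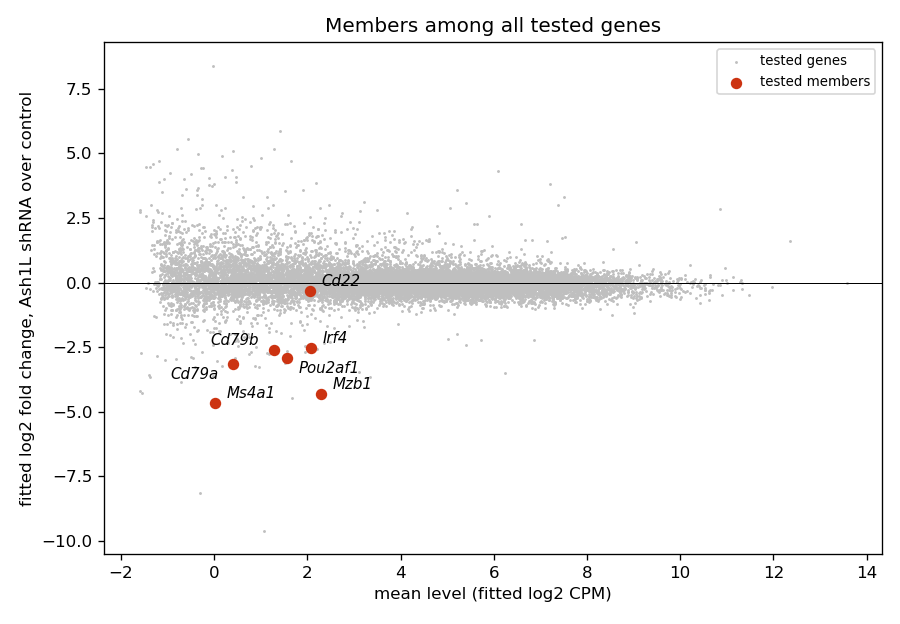
Fitted log2 fold change, knockdown over control, against the fitted mean level (log2 CPM) for the 16232 genes tested (grey), with the 7 B lineage genes that passed the filter in red. *Mzb1* and *Ms4a1* lie below -4 and *Cd22* lies at -0.34, within the cloud of other genes at the same level.

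Single samples moved several of these differences, given here as the log2 ratio of the group means of CPM. Without knockdown sample 1 the ratio went from -4.40 to -5.60 for *Mzb1*, from -2.64 to -3.78 for *Cd79b* and from -2.98 to -4.675 for *Pou2af1*. Without control sample 2 it went from -4.72 to -3.68 for *Ms4a1* and from -3.53 to -2.69 for *Blk*. *Blk* had -2.53 without knockdown sample 2. *Irf4* and *Cd79a* were steadier, with -2.83 to -2.34 and -3.23 to -3.14 over the 4 omissions. *Cd22* ran from -1.725 without knockdown sample 1 to 0.35 without knockdown sample 2, and *Pax5* had 0.04 without control sample 2, so neither kept its direction.

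Per kilobase of exonic sequence in GENCODE, *Mzb1* had the highest control level of the 9 genes, with 7.70 CPM per kilobase. *Cd79b* followed with 2.78, then *Pou2af1* with 1.93, *Cd79a* with 1.56 and *Irf4* with 1.47 CPM per kilobase. The lowest were *Cd22* with 0.885, *Ms4a1* with 0.259, *Blk* with 0.235 and *Pax5* with 0.0354 CPM per kilobase. In knockdown samples the order changed, and *Cd22* came first with 0.698 CPM per kilobase, ahead of *Cd79b* with 0.445 and *Mzb1* with 0.365. These mean levels rest on 2 samples a group, and neighbours such as *Cd79a* and *Irf4* in control samples lie within counting error of each other.

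The make-up of the B lineage counts differed between samples. *Mzb1* contributed 31.9% (exact binomial 95% interval 27.5 to 36.5) and 23.0% (20.8 to 25.3) of the counts of the 9 genes in control samples 1 and 2. It contributed 6.55% (3.99 to 10) and 5.80% (1.6 to 14.2) in knockdown samples 1 and 2. The share of *Cd22* moved the other way. It was 11.5% and 14.0% in control samples and 53.8% (47.9 to 59.6) and 40.6% (28.9 to 53.1) in knockdown samples. A share can rise when the counts of the other genes fall. The level of *Cd22* itself was 3.54 and 5.39 CPM in control samples 1 and 2 and 5.69 and 1.35 CPM in knockdown samples 1 and 2. *Irf4* made up 23.4%, 18.6%, 13.4% and 30.4% in the same order of samples. The 9 genes summed to 30.9 and 38.5 CPM in control samples and to 10.6 and 3.33 CPM in knockdown samples. Without *Cd22* the sums were 27.3, 33.2, 4.89 and 1.98 CPM, which is 8.81-fold lower in the knockdown group, against 4.99-fold with it. *Cd22* was left out with its values known. Without *Mzb1*, the gene with the most counts, the sums were 21.0, 29.7, 9.89 and 3.13 CPM, which is 3.9-fold lower.

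**Figure D3:**
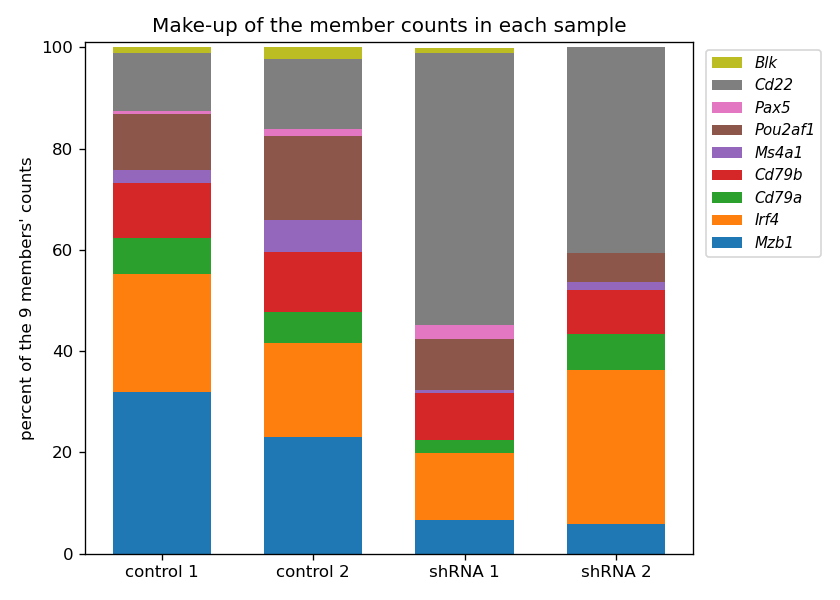
Share of each gene in the summed raw counts of the 9 genes, in percent, for the 4 samples. The grey segment (*Cd22*) takes 53.8% and 40.6% in knockdown samples 1 and 2, and the blue segment (*Mzb1*) takes 31.9% and 23.0% in control samples 1 and 2.

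Other genes of the B lineage were taken from 6 lists, which were written with earlier results of these data known. Together the lists hold 80 further genes in the files, of which 71 were tested. In edgeR's test 15 of the 71 (21.1%) were DOWN and 1 was UP, against 8.28% and 8.61% over all genes tested. Of these 15, 5 passed the filter through the control samples alone, so they had to be lower in knockdown samples. The other 55 were not called, and the median log2 fold change of the 71 genes was -0.27, against -0.003 over all genes. Their adjusted p-values in edgeR's quasi-likelihood test ran from 0.234 to 0.998, so none passed an adjusted p of 0.05. The number DOWN was 8 without control sample 2 and 31 without knockdown sample 1, and it was 6 when at least 10 counts were required in every sample.

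Among B cell surface genes, 5 of the 16 tested were DOWN and 0 were UP, against 8.28% and 8.61% over all genes tested. Of these 5, 4 passed the filter through the control samples alone, *Siglecg*, *Fcrla* and *Cxcr5* among them. *Siglecg*, an inhibitory lectin of B cells, had 10 and 41 counts in the controls and 2 and 1 in knockdown samples and fell with a log2 fold change of -3.86 (SE 0.71), and *Fcrla*, an Fc receptor-like protein inside B cells, fell with -3.63 (SE 0.65). *Cxcr5*, the receptor that guides B cells to follicles, had -2.34 (SE 0.72), and *Ly6d* had -1.97 (SE 0.69). *Fcgr2b* and *Cd37*, which had the highest CPM of this list without regard to length, had -0.18 (SE 0.31) and -0.65 (SE 0.39) and were not called. Both are also expressed by myeloid cells. *Cxcr5* was not called without knockdown sample 1, at -2.16, whereas *Cd37* was then DOWN at -1.31 and *Fcgr2b* at -0.69. *Cd72* and *Cd180*, picked after their values were seen, resembled *Cd22* in being highest in knockdown sample 1. *Cd72* had 2.41 and 4.53 CPM in control and 6.64 and 1.21 CPM in knockdown samples, and *Cd180* had 1.204, 4.19, 9.49 and 2.07 CPM in the same order.

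Genes for signalling below the receptor were mostly not called. Of the 15 tested, 1 was DOWN and 1 was UP, against 8.28% and 8.61% over all genes tested. The log2 fold change was below 0 for 11 of the 15, and the median was -0.27. *Syk* was DOWN with -0.62 (SE 0.24) and *Blnk* was UP with 1.22 (SE 0.19). *Syk* encodes the kinase that binds phosphorylated CD79 chains, and *Blnk* encodes the adaptor that links it to downstream enzymes. *Blnk* had 17.4 and 16.2 CPM in control and 32.8 and 45.7 CPM in knockdown samples, so both knockdown samples lay above the controls. *Cd81* and *Inpp5d*, with the highest CPM of the list, had -0.02 (SE 0.12) and -0.33 (SE 0.34) and were not called. *Syk*, *Blnk* and *Inpp5d* are used by microglia and other myeloid cells as well. *Syk* lost its call without control sample 1 (-0.74), control sample 2 (-0.48) or knockdown sample 2 (-0.38), and *Inpp5d* was DOWN without knockdown sample 1 (-0.92).

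Of 14 tested transcription factor genes of the lineage, 3 were DOWN and 0 were UP, against 8.28% and 8.61% over all genes tested. *Ikzf3*, which encodes Aiolos, had 2.19 and 3.33 CPM in control and 0.547 and 0.289 CPM in knockdown samples, a log2 fold change of -2.70 (SE 0.49). *Spib*, an ETS factor of B cells and plasmacytoid dendritic cells, fell with -2.19 (SE 0.67). *Bcl11a*, which cortical neurons also express, had 55.6, 42.7, 39.1 and 26.9 CPM, a smaller fall of -0.57 (SE 0.22). *Ets1* had -0.08 (SE 0.14) and was not called. The median over the list was -0.20. *Spib* was not called without control sample 2, at -1.03, nor *Bcl11a* without control sample 1 or knockdown sample 2, at -0.36 and -0.32.

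Plasma cell genes were mostly not called. Of the 17 tested, 3 were DOWN and 0 were UP, against 8.28% and 8.61% over all genes tested. These 3 were *Slamf7* with -1.503 (SE 0.34), *Derl3* with -1.06 (SE 0.32) and *Txndc5* with -0.56 (SE 0.15). *Slamf7* is a surface receptor of plasma cells and other lymphocytes, *Derl3* acts in the disposal of misfolded proteins, and *Txndc5* is a disulfide isomerase of the endoplasmic reticulum. *Hsp90b1* and *Xbp1*, with the highest CPM of the list, had log2 fold changes of 0.25 (SE 0.11) and -0.025 (SE 0.12) and were not called. These genes serve secretion in many cell types. *Derl3* was not called without control sample 1, at -0.80, and *Txndc5* was not called without control sample 2, at -0.38. *Prdm1*, the master regulator of plasma cells, and *Tnfrsf17*, their survival receptor, are named here after their values were seen. *Prdm1* had 2.62, 3.31, 2.52 and 2.56 CPM and was not called. *Tnfrsf17* had 9, 22, 8 and 2 counts and was not called, at -1.61 (SE 0.67).

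The joining chain of antibody polymers, listed under its older symbol *Igj*, had the most counts of the immunoglobulin list. Its counts were 2011 and 4703 in the controls (142.4 and 134.0 CPM) and 641 and 15 in knockdown samples 1 and 2 (23.4 and 0.723 CPM). Both knockdown samples lay below the controls, but they differed so widely from each other that the gene was not called, with a log2 fold change of -3.49 (SE 1.43) and an adjusted p of 0.338 in edgeR's quasi-likelihood test. There were 14.5 (exact 95% interval 12.2 to 17.3) and 15.1 (13.5 to 17.0) *Igj* counts per *Mzb1* count in the control samples. The ratio was 33.7 (21.4 to 56.4) in knockdown sample 1 and 3.75 (1.19 to 15.5) in sample 2. *Igj* was DOWN without knockdown sample 1, at -7.57, and without knockdown sample 2, at -2.56. The interval of the ratio in knockdown sample 1 lies above those of both controls. *Vpreb3*, a protein associated with the receptor of B cell precursors, was DOWN with 6, 24, 4 and 5 counts and a log2 fold change of -1.59 (SE 0.64), and passed the filter through the control samples alone. Its call was lost without control sample 1 (-1.82), knockdown sample 1 (-1.26) or knockdown sample 2 (-1.96). Constant region genes of the immunoglobulin chains, such as *Ighm* and *Igkc*, were looked for but not found among the gene symbols counted. They could therefore not be analysed.

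For survival and homing of B cells, 3 of the 13 genes tested were DOWN and 0 were UP, against 8.28% and 8.61% over all genes tested. The median log2 fold change of this list was -0.80. *Cxcl13*, the chemokine that attracts B cells through CXCR5, had 44 and 127 counts in control and 14 and 3 counts in knockdown samples, a log2 fold change of -3.28 (SE 0.56). *Il7r*, a receptor of lymphocyte precursors and T cells, had 3.89 and 3.76 CPM in control and 0.949 and 1.16 CPM in knockdown samples, a log2 fold change of -1.86 (SE 0.34). The third was *Cxcr5*, given above. *Cxcl12* and *Il21r*, with the highest CPM of the list, had -0.46 (SE 0.38) and -1.006 (SE 0.44) and were not called. Without knockdown sample 1 they were DOWN, at -1.19 and -1.62, and *Il21r* was also DOWN without control sample 1, at -1.35.

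**Figure D4:**
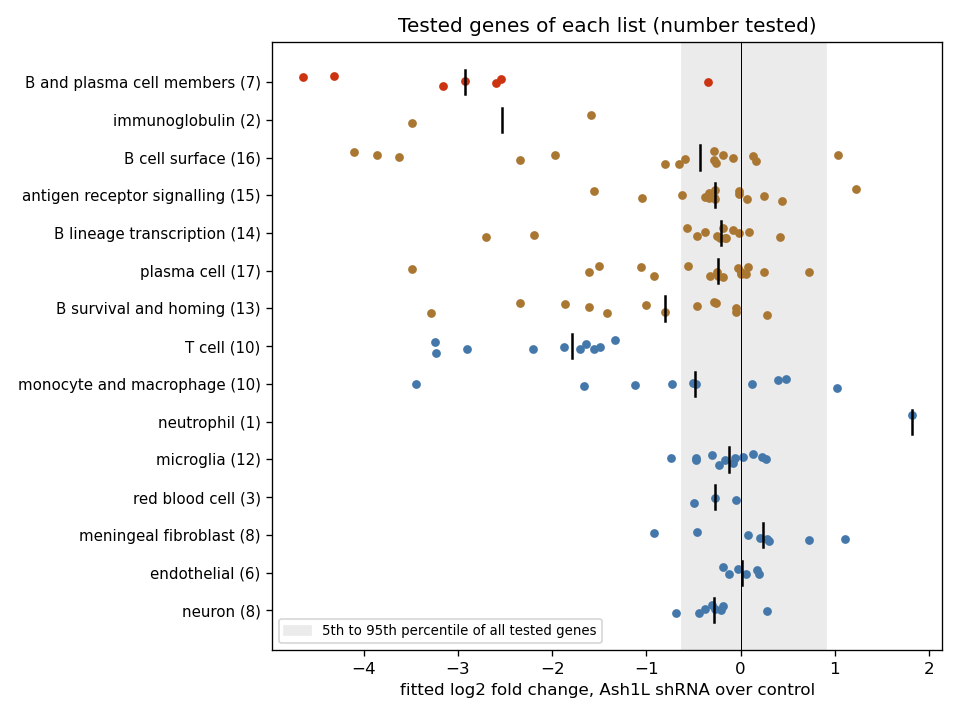
Fitted log2 fold changes, knockdown over control, of the tested genes of each list (dots), with the median of each list as a black bar and the number tested in parentheses. The grey band spans the 5th to 95th percentile of all genes tested. Members lie between -4.65 and -0.34, T cell genes have a median of -1.79 (5 of the 10 passed the filter through the control samples alone), and the microglia and endothelial medians are -0.12 and 0.02.

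The pattern of *Mzb1* over the 4 samples was closest to those of *H2-Q10*, *Cxcl13* and *Slpi*. Likeness was the Euclidean distance between deviations of log2 CPM from each gene's mean over 4 samples, and it was 1.092, 1.152 and 1.205. *H2-Q10*, a class I gene of the major histocompatibility region with close paralogs that may share its reads, had 19, 54, 0 and 0 counts. *Slpi*, a secreted protease inhibitor, had 145 and 99 counts in the controls and 12 and 2 in knockdown samples.

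Markers of other cells in a cortical punch were set beside these values. Of 10 T cell genes tested, 8 were DOWN, against 8.28% of all genes tested. Of these 8, 5 passed the filter through the control samples alone and so had to be lower in knockdown samples, and 3 did not. All 10 genes summed to 16.2 and 31.9 CPM in control and to 7.48 and 5.30 CPM in knockdown samples. *Cd3g*, a chain of the T cell receptor complex, had -3.24 (SE 0.48), *Cd3d* had -3.23 (SE 0.83), and the adhesion receptor *Cd2* had -2.90 (SE 0.54). *Cd4*, the coreceptor of helper T cells that some myeloid cells share, had -1.64 (SE 0.31). *Lck* was not called, with -1.56 (SE 0.71). All 10 T cell genes had counts in every sample. Among monocyte and macrophage genes, *Ly6c2* had -3.45 (SE 0.40), *Ccr2* had -1.67 (SE 0.40) and *Mrc1* had -0.47 (SE 0.17). These were the 3 DOWN of 10 tested, against 8.28% of all genes tested. The part of these other leukocytes in the levels of the 9 genes was not tested.

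Of 12 microglia genes, 0 were called. Their summed level was 1024 and 1060 CPM in control samples and 1401 and 547 CPM in knockdown samples 1 and 2, a 2.56-fold difference between the latter. *Itgax*, which had the highest CPM of the monocyte and macrophage list, had 6.94 and 12.9 CPM in control and 36.9 and 3.81 CPM in knockdown samples. *Cd22*, *Cd72* and *Cd180* were also highest in knockdown sample 1, and the part of microglia in their levels was not tested. Blood was followed by 6 red blood cell genes, which summed to 76.1 and 52.8 CPM in control and to 45.9 and 47.6 CPM in knockdown samples. Of 3 tested, *Beta-s*, a haemoglobin beta chain, was DOWN with -0.50 (SE 0.20), and *Alas2* had -0.27 and was not called. The red blood cell sums differed 1.38-fold between the group means, against 4.99-fold for the 9 B lineage genes, and the part of blood was not tested.

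Neutrophil genes were near the limit of detection, with sums of 1.496 to 2.12 CPM, and 1 of 7 could be tested. That gene, *Mpo*, was UP with 3, 6, 18 and 14 counts and passed the filter through the knockdown samples alone. Of 8 meningeal fibroblast genes, *Col3a1* with 1.104 (SE 0.42) and *Lum* with 0.72 (SE 0.29) were UP, and 0 were DOWN. Their summed level was 97.9 and 162.7 CPM in control and 164.5 and 165.6 CPM in knockdown samples, so the lowest sum was that of control sample 1. The 6 endothelial genes were not called and summed to 217.5 to 257.4 CPM over all samples. Neuronal genes summed to 6323 and 6624 CPM in control and to 5619 and 4396 CPM in knockdown samples, with *Syt1* and *Neurod6* DOWN at -0.69 (SE 0.22) and -0.45 (SE 0.18). Over all 8 lists of other cell types, 14 of the 58 genes tested were DOWN (24.1%) and 3 were UP, against 8.28% and 8.61% of all genes tested. Of the 14, 5 are the T cell genes that passed the filter through the control samples alone. The number DOWN was 5 without control sample 2, 33 without knockdown sample 1 and 8 with at least 10 counts in every sample.

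**Figure D5:**
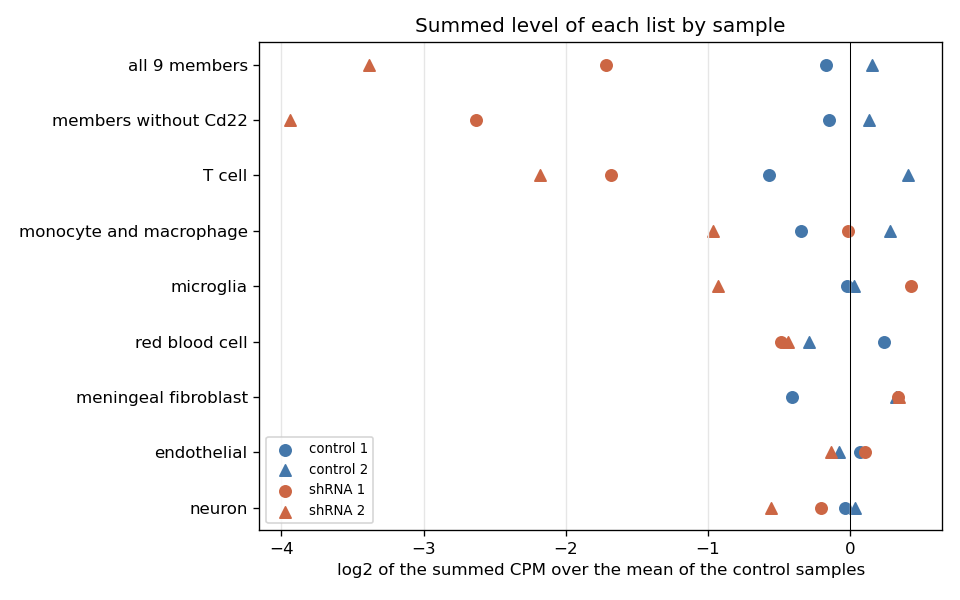
Summed CPM of each list in each sample, as log2 of the ratio to the mean of the control samples (0). Circles are sample 1 and triangles sample 2 of control (blue) and knockdown (orange). The sum of the 9 B lineage genes was 10.6 and 3.33 CPM in knockdown samples against 30.9 and 38.5 CPM in controls, and the endothelial sum stayed between 217.5 and 257.4 CPM.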

How the data were processed

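Ribosomal RNA-depleted, stranded total RNA libraries from PFC were analysed for 2 control and 2 *Ash1L* shRNA (knockdown) samples, grouped by their labels. The authors deposited raw counts per gene symbol, without normalization, made with STAR on mm10 and featureCounts per the paper's methods, while the labels' protocol names Cutadapt and TopHat2. The strand setting of the counting is not given in the sources used here. No source ties replicates beyond pools of mice, so p-values measure the spread between these samples.

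Counts were filtered with filterByExpr, scaled with TMM and tested with edgeR 4.0.16 (R 4.3.3; quasi-likelihood F test with robust glmQLFit) for *Ash1L* shRNA over control, and p-values were adjusted by Benjamini-Hochberg across the 16232 genes tested. CPM values were computed from raw counts with TMM factors. Intervals are exact Poisson, exact binomial or exact conditional intervals at 95%. Exonic lengths and positions came from GENCODE vM21 (GRCm38), and promoters from RefSeq. DESeq2 1.42.0, other scalings and filters, a replicate block and leaving out each sample were the alternatives.

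Members and lists were chosen with earlier results of these data known. The named genes were all members, up to 4 called genes by unadjusted p and the 2 genes with the highest mean CPM of each list, and the 3 genes whose pattern lay closest to that of the member with the highest mean CPM. Others are named where the text says so or to complete a count of 5 or fewer. Some of what the rule selects is not reported here.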

Additional observations from a re-analysis of the deposited data

How the results depend on the processing

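Members with separate groups numbered 7, and also 7 under RLE, library size and raw count scaling. With each sample left out they numbered 7 to 9, but leaving out a sample cannot lower this number. The median log2 ratio of the 9 genes was -2.98, from -3.05 to -2.95 over the scalings and from -3.23 to -2.34 with each sample left out, with groups at 0 set to 3 counts. *Pax5* had a log2 ratio of 0.04 without control sample 2 and *Cd22* one of 0.35 without knockdown sample 2, both above 0, against -1.10 and -0.34 with all samples. No ratio was computed for *Pax5* and *Blk* without knockdown sample 1. Leaving out each sample gave 306 to 2718 DOWN and 423 to 2368 UP among all genes, 8 to 31 DOWN and 1 to 4 UP in the other B lineage lists, and 5 to 33 DOWN and 1 to 8 UP in the other cell type lists. These fits assume that the lone sample of a group varies like the other group. With at least 10 counts in every sample, which tests fewer genes, 6 other B lineage and 8 other cell type genes were DOWN. UP were 2 other B lineage genes under library size scaling and 2 with the crossed block, and 1 other cell type gene with DESeq2; the cause was not tested. Same-numbered samples did not move together around their group means (correlation -0.11 over genes). This rests on a single difference between samples in each group, so it cannot show whether the numbers pair samples. The replicate block gave 1020 DOWN and 1052 UP among all genes and 14 DOWN and 1 UP in the other B lineage lists, and the crossed pairing, chosen after seeing the data, gave 1736 and 1541, and 17 and 2. *Igj* was DOWN with DESeq2, with the block and without knockdown sample 1 or 2. *Vpreb3* was not called with DESeq2, with library size scaling, with no filter or with either block, nor was *Syk* with the block by number or *Bcl11a* with the crossed block. *Il21r* was DOWN with DESeq2, with no filter and with the crossed block, and *Hsp90b1* was UP under library size scaling (0.29). Library size scaling moved the median log2 ratio of all genes to 0.04. Depth limits *Pax5*, *Blk*, *Ms4a1* and *Vpreb3* most, with few counts in knockdown samples.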
